A study of Arabidopsis thaliana with 4 samples.

Results

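The genes described here make, store and release indole-3-acetic acid (IAA), the main natural auxin of Arabidopsis. They are the GH3 conjugating enzymes GH3.3 (AT2G23170), GH3.5 (AT4G27260, also called WES1) and GH3.6 (AT5G54510, also called DFL1), the flavin monooxygenases of the YUCCA family, of which YUC2 (AT4G13260), YUC4 (AT5G11320) and also YUC6 (AT5G25620) are covered, and IBR10 (AT4G14430), which acts on an auxin precursor. A gene was included where a probe set mapped to it alone. The annotation of the array platform named 5 of the 7, and GH3.6 and IBR10 were named only through single-gene rows of File S2 of the study. Each of the 7 had a single probe set, out of 22746 that were tested, and 14266 genes in all had one. The rows of File S2 held here list genes that the study had found higher in the mutant on these same arrays, so the direction of GH3.6 and IBR10 is no independent evidence.

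The samples were whole seedlings of the Atdi19-3 mutant and of the wild type, both of the ecotype Col-0. All were 10 days old and had been grown at 22 °C on half-strength MS medium with 16 h of light and 8 h of dark, without treatment. Atdi19-3 is a homozygous T-DNA line with its insertion in AtDi19-3 (AT3G05700), a gene for a zinc finger protein of the drought-induced Di19 family, and a single insertion line was used. RNA of 2 biological replicates per genotype was hybridized to Affymetrix ATH1 arrays, which carry a set of short probes for each transcript. Whole seedlings mix many cell types, so fewer cells that express a gene and less RNA per cell cannot be told apart.

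IAA is made from tryptophan in a short route. Aminotransferases give indole-3-pyruvate, and YUCCA enzymes turn this into IAA in the step that usually limits the pathway. GH3 proteins then join IAA to amino acids such as aspartate, which takes the active hormone away, and several GH3 genes are themselves switched on quickly by auxin. IAA also comes from the longer-chain precursor indole-3-butyric acid (IBA), which is shortened in peroxisomes with the help of IBR10.

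Every reading is a GCRMA value, a background-corrected and normalized probe set level on a log2 scale. The lowest value in the table, 2.49, occurs on each array and is the floor. At or under 3 on every array were 56.1% of those tested. Readings at or under 3 are called near the floor below. The share of tested probe sets above 3 was 33.1% and 31.8% on the Atdi19-3 arrays, against 27.0% and 27.5% on the wild-type arrays. The hybridization spike-ins are foreign transcripts meant to be given to all arrays in the same amounts. The amounts used here are not stated in the sources. The medians of their 18 probe sets were 5.92 and 6.20 on the Atdi19-3 arrays, against 9.69 and 9.41 on the wild-type arrays, and all 18 were lower in Atdi19-3. RNA labelled from its 3′ end gives less signal at 5′ probe sets where it is shorter, and the gap between 3′ and 5′ probe sets is used as a sign of RNA quality. The 3′ probe set of ubiquitin read 7.94 and 8.17 on the Atdi19-3 arrays, against 7.45 and 7.50 on the wild-type arrays. Its 5′ probe set read 7.34 and 7.45 on the Atdi19-3 arrays, against 3.04 and 3.41 on the wild-type arrays. For GAPDH the 3′ minus 5′ difference was 0.58 and 0.78 on the Atdi19-3 arrays, against 2.76 and 2.89 on the wild-type arrays. Both transcripts thus had the wider gap on the wild-type arrays. The part of these array differences in the results below was not tested, and it splits the arrays as the genotype does. Of 5 markers of green tissue, 3 had a named probe set, and LHCB4.1 and LHCB4.2 were called higher in Atdi19-3, that is, at a limma adjusted p under 0.05. Their summed linear level with RCA was 1315 to 1482 in Atdi19-3 and 97.6 to 129 in the wild type. Of 7 root markers, 1 had a named probe set, PYK10, at 3.42 and 3.56 in Atdi19-3 and 3.21 on both wild-type arrays (linear level 10.7 to 11.8 in Atdi19-3 and 9.24 in the wild type), and it was not called. None of the 3 seed or 4 flower and senescence markers had a named probe set. For AtDi19-3 itself no probe set is named in the tables used, and the genotype labels were therefore not checked against the disrupted gene.

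The members were dim in both genotypes, as was most of the array. Of all tested probe sets, 56.1% stayed at or under 3 on every array, as did 3 of the 7 members. Of the 28 member readings, 7 lay above 3, 0 above 4 and 14 above the median of their array. The highest was 3.73, of GH3.3 on a wild-type array. In Atdi19-3, 5 of 14 readings lay above 3, against 2 of 14 in the wild type. GH3.6 gave 2 of the Atdi19-3 readings and IBR10 gave 1, against 0 in the wild type for each. Both were named only through File S2, so the higher count in Atdi19-3 is no independent evidence. GH3.3, GH3.5, GH3.6 and IBR10 each passed 3 on at least 1 array, none of them on all 4, and the 3 YUC genes did so on none. In the fit of all probe sets with limma, 0 of the 7 members were called at a Benjamini-Hochberg adjusted p under 0.05. For GH3.6 the unadjusted p was under 0.05, as for no other member. Over all tested probe sets 3.76% were called, so a count of 0 among 7 genes lies near the background. The median log2 difference was 0.00 over the members and 0.00 over all tested probe sets.

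**Figure D1:**
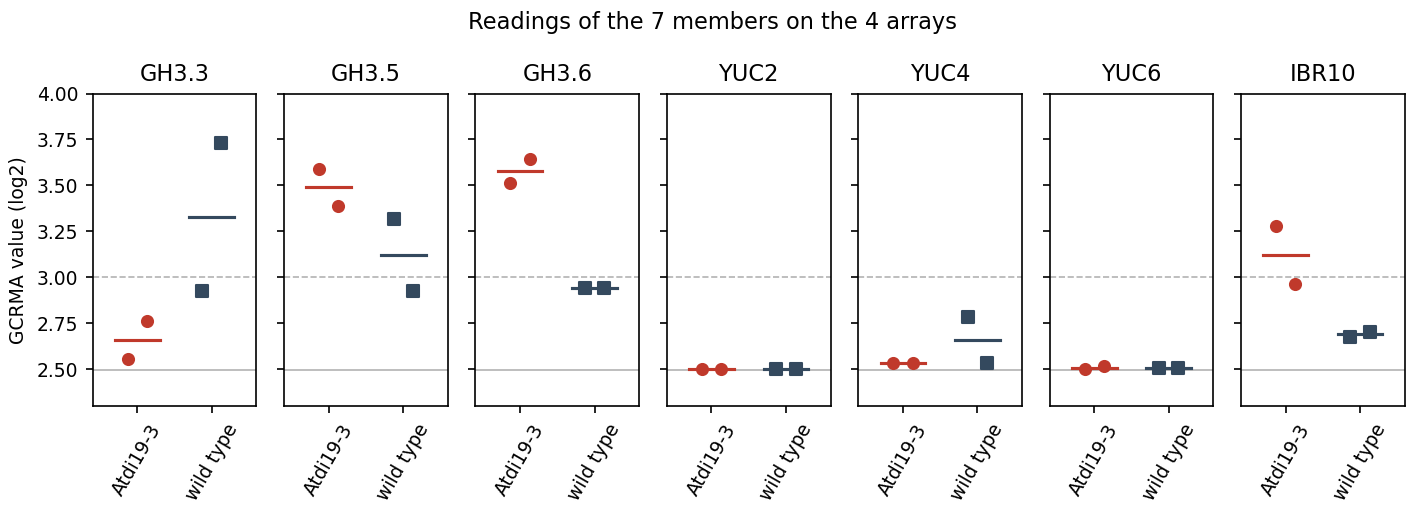
GCRMA values (log2) of the 7 members on each of the 4 arrays, Atdi19-3 as circles and wild type as squares, with a bar at each genotype's mean. The solid line marks the lowest value of the table, 2.49, and the dashed line the level of 3; the YUC readings all lie under 3.

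GH3.6 was the 1 member whose 95% interval left out 0, which was common among all tested probe sets. It conjugates IAA to amino acids, and plants that overproduce it grow as dwarfs in the light. GH3.6 read 3.52 and 3.65 on the Atdi19-3 arrays, against 2.94 on both wild-type arrays. Both Atdi19-3 arrays were thus above 3 and above both wild-type arrays, whose value was identical to the last digit deposited. Identical values on both wild-type arrays were found for 24.1% of all tested probe sets and can be the floor of a probe set, in which case the difference is a lower bound. The log2 difference was 0.64 (standard error 0.06, 95% interval 0.43 to 0.85), or 1.55-fold, and it did not pass the test over all probe sets (limma, adjusted p = 0.069). The identical wild-type values add no spread, so this interval rests mainly on the Atdi19-3 arrays and can be too narrow. A difference at least this high was shown by 11.9% of all tested probe sets. GH3.6 was named only through File S2, whose rows list genes higher in the mutant on these arrays. Its difference therefore cannot be set beside that share. Limma called GH3.6 (adjusted p = 0.025) when only the 6894 probe sets with a mean above 3 entered the fit, where 37.2% of the probe sets were called, 34.5% as higher. GH3.6 passed that filter only through its Atdi19-3 readings, since both wild-type readings lay under 3, so the call under it gives no support. Quantile normalization brought the difference down to 0.38 (adjusted p = 0.13), and with it 0 of the 7 members and 1.88% of all tested probe sets were called.

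GH3.5, which acts on IAA and also on salicylic acid, differed less. It read 3.59 and 3.39 on the Atdi19-3 arrays, against 3.32 and 2.92 on the wild-type arrays. The genotypes did not overlap, but the lower Atdi19-3 array and the higher wild-type array lay close together. The log2 difference was 0.37 (standard error 0.20, 95% interval -0.35 to 1.08), with a limma adjusted p of 0.58. Without the second wild-type array it was 0.17, and without the first 0.57. After quantile normalization GH3.5 read 3.38 and 3.27 in Atdi19-3 and 3.61 and 2.97 in the wild type. The genotypes then overlapped, and the difference was 0.03 (adjusted p = 0.99).

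GH3.3, a strongly auxin-inducible member of the same family, had the opposite sign. It read 2.56 and 2.76 on the Atdi19-3 arrays, against 2.93 and 3.73 on the wild-type arrays. The 1 reading above 3 came from the second wild-type array, and the wild-type arrays lay further apart (SD 0.57) than those of Atdi19-3 (SD 0.14, n = 2 each). The log2 difference was -0.67 (standard error 0.37, 95% interval -2.01 to 0.68), with a limma adjusted p of 0.58. A value at least this low was shown by 1.30% of all tested probe sets. The second wild-type array carried much of it, since the difference was -0.26 without that array and -1.07 without the first. With all values under 3 raised to 3 it was -0.37. Both mutant readings are near the floor, so the size of the difference can be understated.

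The readings of the 3 YUC genes all lay under 3 in both genotypes, near the floor. YUC2, which overlaps in function with YUC4 and YUC6, had 1 value, 2.50, on all 4 arrays. The same was true of 12.1% of the tested probe sets. YUC6, whose activation-tagged line overproduces auxin, read 2.50 and 2.52 on the Atdi19-3 arrays and 2.51 on both wild-type arrays, a spread of hundredths in either direction. YUC4, which acts with YUC1 in flower and leaf formation, read 2.53 on both Atdi19-3 arrays, against 2.79 and 2.53 on the wild-type arrays. Its first wild-type array alone stood above the rest, and 3 of the 4 arrays held an identical value. The log2 difference of YUC4 was -0.13 (95% interval -0.53 to 0.28, limma adjusted p = 0.58), and it was 0.00 without the first wild-type array. Without the second wild-type array the difference was -0.25. It then rests on a single wild-type array against identical Atdi19-3 readings, so no call is drawn from it. At the signal of these probe sets, no difference of the YUC genes could be detected. The narrow limma intervals of YUC2 (-0.02 to 0.02) and YUC6 (-0.03 to 0.03) rest on readings at or next to the floor.

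IBR10 is a peroxisomal protein of the enoyl-CoA hydratase and isomerase family that is needed for the conversion of IBA to IAA. It read 3.28 and 2.97 on the Atdi19-3 arrays, against 2.68 and 2.70 on the wild-type arrays. The genotypes did not overlap, and 1 of the Atdi19-3 readings lay above 3. The log2 difference was 0.43 (standard error 0.14, 95% interval -0.08 to 0.94), with a limma adjusted p of 0.34. It was 0.27 without the first Atdi19-3 array and 0.59 without the second. With values under 3 raised to 3 it was 0.14.

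Of the 7 members, GH3.5, GH3.6 and IBR10 had both Atdi19-3 arrays above both wild-type arrays, as had 28.5% of all tested probe sets. Of these, only GH3.5 was named without File S2, whose rows list genes higher in the mutant on these arrays. The separation of GH3.6 and IBR10 is thus no independent evidence and cannot be set beside that share. GH3.3 had both Atdi19-3 arrays below both wild-type arrays, as had 10.4%. The sign of these differences holds on the deposited scale. Centring the arrays on the spike-ins moved the median of all tested probe sets by 3.49 and gave GH3.3 and YUC4 positive differences, whereas centring on the brighter probe sets moved it by -0.96 and gave GH3.5, GH3.6 and IBR10 negative ones. Relative to the shift, each difference equals that on the deposited scale by construction, since centring moves every probe set of an array alike.

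**Figure D2:**
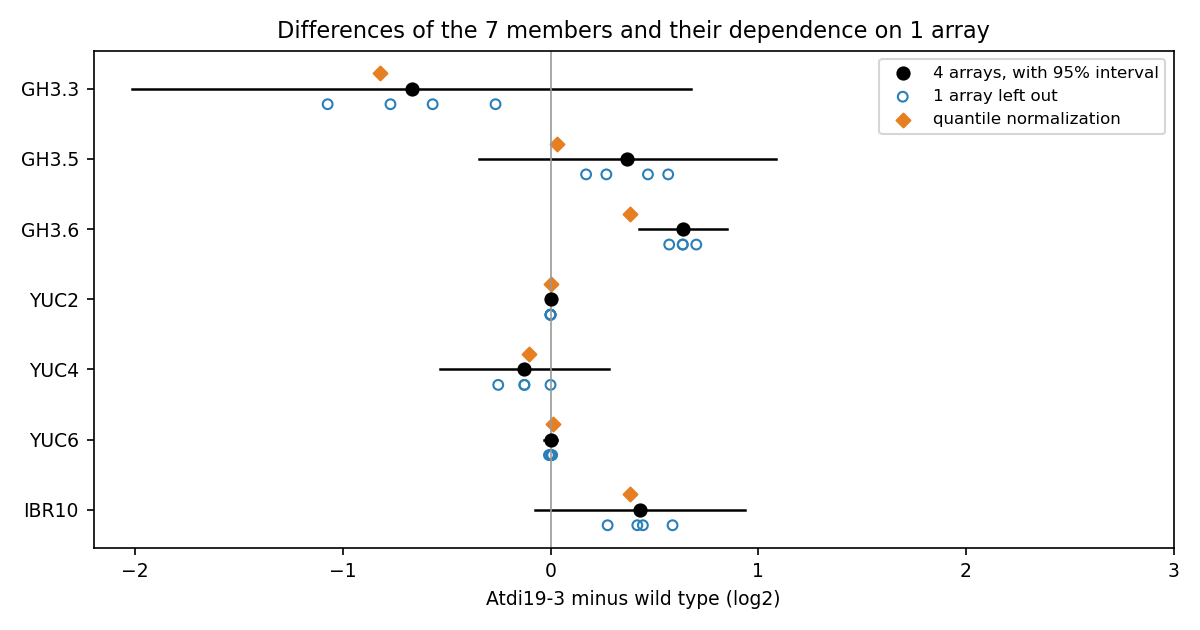
Log2 difference, Atdi19-3 minus wild type, for each member (black points with the 95% limma interval), with 1 array left out (open circles) and after quantile normalization (diamonds). The interval of GH3.6 (0.43 to 0.85), whose wild-type readings were identical, is the only member interval that leaves out 0. Such intervals were common among all tested probe sets. GH3.3 ranges from -1.07 to -0.26 with 1 array left out.

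Few of the other genes of IAA synthesis and turnover could be tied to a probe set by name. Of the tested probe sets, 7750 were not named here and 503 carried several genes. A gene without a named probe set can therefore still have readings on these arrays. Of 47 genes in 7 roles, 16 had a named probe set, and 10 of these stayed at or under 3 on all 4 arrays. GH3.1, GH3.9, YUC2 and DAO2 each held 1 value on all arrays (named after their values were seen). Over the 16 genes limma called 1 higher and 0 lower in Atdi19-3, against 3.16% and 0.602% of all tested probe sets, and the median log2 difference was 0.00. The gene called was PED1 (AT2G33150), the peroxisomal 3-ketoacyl-CoA thiolase of fatty acid and IBA beta-oxidation. PED1 read 5.40 and 5.55 on the Atdi19-3 arrays, against 3.05 and 3.19 on the wild-type arrays, a log2 difference of 2.36 (standard error 0.09, limma adjusted p = 0.031). It was the 1 gene of the 16 above 3 on every array. PED1 is also named only through File S2, so its direction is no independent evidence, and after quantile normalization it had 1.75 (adjusted p = 0.053). PED1 was not called without any one of the 4 arrays (adjusted p = 0.063 to 0.13). Leaving out the first or the second Atdi19-3 array ended the calls of all probe sets.

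Among the remaining roles no gene with a named probe set was called. Besides the members, 3 GH3 proteins had a named probe set. GH3.1 and GH3.9 read 2.52 and 2.69 on every array, and GH3.17, which also conjugates IAA and is named after its values were seen, read 2.60 and 2.62 in Atdi19-3 and 2.60 and 2.76 in the wild type. YUC11, a seed-expressed monooxygenase, read 2.49 on 3 arrays and 2.82 on the first wild-type array, the array on which YUC4 also stood apart. Of the 4 genes with a named probe set for IAA oxidation, glucosylation and methylation, DAO1, the dioxygenase that oxidizes IAA, read 3.04 and 3.09 in Atdi19-3 and 2.96 and 3.04 in the wild type (log2 difference 0.07, limma adjusted p = 0.58). UGT84B1, a glucosyltransferase that acts on IAA, read 2.52 and 2.51 in Atdi19-3 and 2.52 and 2.68 in the wild type (log2 difference -0.09, adjusted p = 0.58). None of the 4 genes for tryptophan aminotransferases and their counterpart VAS1, or of the 7 genes for hydrolases of IAA conjugates had a named probe set. These 2 roles were therefore not tested, which does not show that the array lacks probe sets for them.

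**Figure D3:**
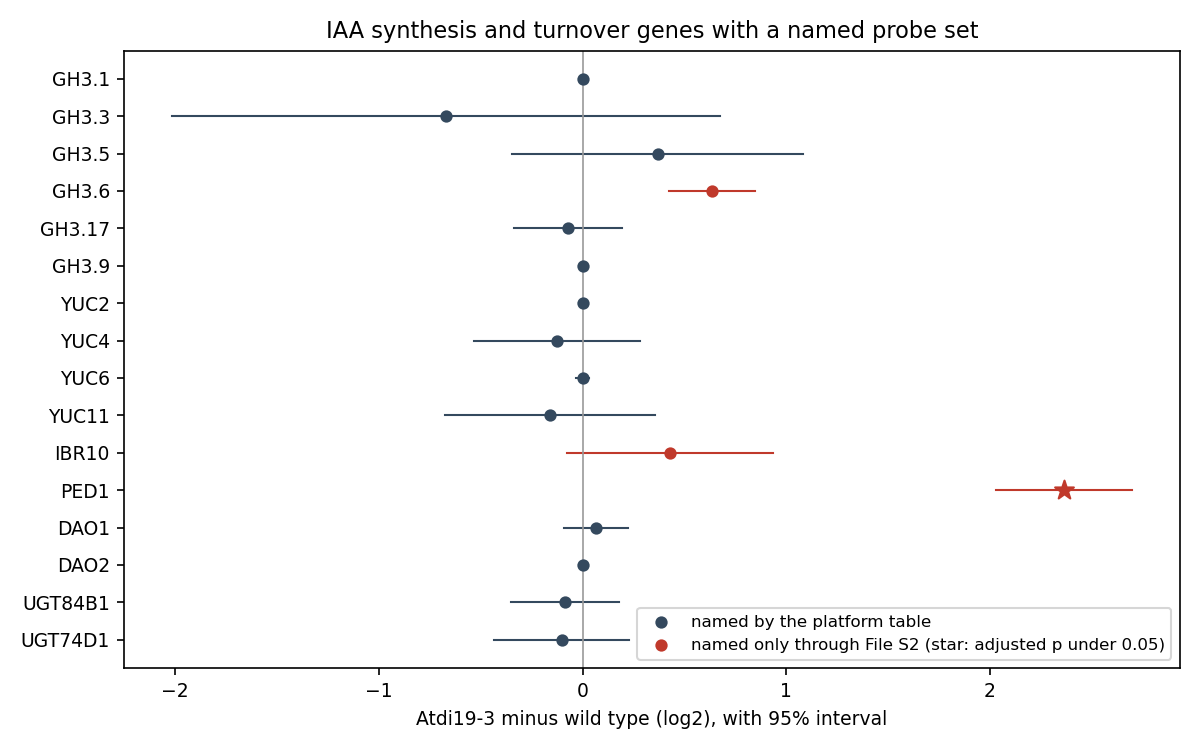
Log2 difference, Atdi19-3 minus wild type, with the 95% limma interval, for the 16 genes of IAA synthesis and turnover with a named probe set. Dark points were named by the platform table and red points only through File S2; PED1, the star at 2.36, is the 1 gene called.

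The genes whose 4 readings ran most like those of a member were found among 13431 other probe sets. The platform table named each of these as a single gene, and each was centred on its own mean. For GH3.6 they were AT4G38660 and AT3G52640, with root mean square differences of 0.006 and 0.010 log2 units over the 4 arrays. AT3G52640 read 3.28 and 3.42 in Atdi19-3 and 2.69 and 2.70 in the wild type. The wild-type readings of AT4G38660, at 2.52, were identical, as were those of GH3.6. For GH3.3 they were AT5G50335 (0.012) and AT4G08140 (0.069), for GH3.5 AT1G35420 (0.024) and the sugar transporter gene SWEET1 (0.024), and for IBR10 AT1G12230 (0.015) and AT4G10750 (0.017). With 4 arrays such a likeness is a description only. Of these 8 genes 0 were called, which follows largely from their likeness to members that were not called. The lowest limma adjusted p among them was 0.059, of AT4G38660.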

How the data were processed

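From 500 ng of seedling RNA, biotinylated RNA was made with a 3′ labelling protocol. The authors deposited log2 values for 22810 probe sets, processed with GCRMA in R 3.4.0 per the submitters' processing notes; the GCRMA version and the joint normalization are not given in the sources used here, and scans were not analysed here. Low signal is compressed towards a floor by this background correction. The 64 control probe sets were set aside and the other 22746 compared, Atdi19-3 minus wild type, with limma 3.58.1 in R 4.3.3 (lmFit, eBayes, no covariate, no filter), with Benjamini-Hochberg adjustment over all of them. The prior was worth 0.48 degrees of freedom. The fit was tested on simulated data. An exact permutation of 2 against 2 arrays cannot reach 0.05 and was not used. The labels call the arrays biological replicates, and their number limits the precision.

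Names came from the annotation of the platform (13513 with 1 gene, 503 with several) or from single-gene rows of File S2 (980 more, from the 1998 rows held here). A further 7750 tested probe sets were not named. Columns of the study's own fold changes and p-values in File S2 were not used. No coordinates are given, since the values carry no build. The members, the gene lists and the level of 3 were chosen with earlier results of these data known. Named were all members, called genes of the list or the 2 with the smallest p per role, and per member above 3 the 2 genes most like it. Alternatives were quantile normalization, 2 centrings, a filter, a raised floor, a variance trend, a replicate block and each array left out.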

Additional observations from a re-analysis of the deposited data

How the results depend on the processing

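Limma called 855 probe sets on the deposited values and 0 of the 7 members. It called 428 after quantile normalization, 2563 with only probe sets above a mean of 3 (1 member, GH3.6, 0.64, which passed the filter only through its Atdi19-3 readings, so this call gives no support), and 0 with the replicate number as a block. Leaving out 1 array gave 0 to 3654 calls, with 0 to 1 member (YUC4 without the second wild-type array) and 0 to 3 genes of IAA synthesis and turnover. The deviations of same-numbered arrays had a correlation of 0.02 over all tested probe sets. With 2 arrays per genotype this cannot show whether the arrays were paired. With the block 0 of the 16 genes were called, so PED1 was not called either. Of the 16, 0 were also called after quantile normalization and 2 with the filter, which changes how many probe sets are tested.

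Both centrings move every probe set of an array alike, floor values included. Spike-in centring called 22742 probe sets, all 7 members and 16 of the 16 genes. The member median was 3.49, with GH3.3 at 2.82, GH3.5 at 3.86, GH3.6 at 4.13, YUC2 at 3.49, YUC4 at 3.36, YUC6 at 3.49 and IBR10 at 3.92. Centring on probe sets above 4 called 20258, of them 6 members and 15 of the 16 genes. The member median was -0.96, with GH3.3 at -1.63, GH3.5 at -0.59, GH3.6 at -0.32 (not called), YUC2 at -0.96, YUC4 at -1.09, YUC6 at -0.96 and IBR10 at -0.53.

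With 1 array left out, GH3.3 ran from -1.07 to -0.26, GH3.5 from 0.17 to 0.57, GH3.6 from 0.57 to 0.70, YUC4 from -0.25 to 0.00, YUC2 stayed at 0.00, YUC6 ran from -0.01 to 0.01 and IBR10 from 0.27 to 0.59, with a member median of 0.00 to 0.01. The filter removed GH3.3, the YUC genes and IBR10, so it gives no value for them or for the median. Of the 28 readings, 7 lay above 3, 0 above 4 and 14 above the median of their array. The variance trend and the raised floor changed no member's call. Signal near the floor and the number of arrays both limit what these 7 genes show.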
